A study of Mus musculus with 8 samples.

Results

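Enzymes anchored on the outer face of the intestinal brush border were examined in sorted goblet cells: the alkaline phosphatases Akp3, Alpi and Alpl, the ectophosphodiesterases Enpp7 and Enpp3, and the ceramidase Asah2. The members were all probes of the deposited signal table whose gene symbol is one of these 6 names. They were 6 of 25697 probes and covered 4 of the 6 genes: 1 probe each for Akp3, Alpl and Asah2 and 3 for Enpp7. No probe was named for Alpi or Enpp3, and both were not analysed here. The cells came from C57Bl/6 mice. Epithelium was released with 0.05% EDTA at 37 degrees C for 15 minutes, and cells that were CD45-negative, CD24-negative, cytokeratin 18-positive and bound the lectin UEA-I were sorted from small intestine (4 samples) and colon (4 samples). Each sample was hybridised to 1 Illumina array. The labels give no age, no treatment and no part of the small intestine, and do not say whether samples came from separate animals, and the p-values below therefore reflect only how these samples vary, which may be technical.

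Alkaline phosphatases of the gut remove phosphate groups from dietary substrates, nucleotides and bacterial lipopolysaccharide. In the mouse, Akp3 is known as the duodenal form and Alpi as the form found along more of the gut, while Alpl is the tissue-nonspecific form of bone, liver and neutrophils. Enpp7, the alkaline sphingomyelinase, splits dietary sphingomyelin to ceramide, and Asah2, the neutral ceramidase, splits ceramide to sphingosine. Enpp3 is known to hydrolyse extracellular nucleotides and to mark basophils and mast cells. All of the intestinal forms are known chiefly from absorptive enterocytes, not from goblet cells.

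The members that were higher in small intestine are shown by the 150 bases before their RefSeq transcription start (GRCm38.p6). Alpi, for which no probe was named, is set beside Akp3 as the related phosphatase gene of the same chromosome. Akp3 lies at chr1:87124804-87124953 (plus strand), Alpi at chr1:87101607-87101756 (minus), Enpp7 at chr11:118988031-118988180 (plus) and Asah2 at chr19:32103141-32103290 (minus). Capitals mark matches on either strand. The motif CAAAGTC is a core of HNF4 sites. For the factors of the GATA family, AGATAA was searched, and so was the variant TGATAA. The letters GTTAAT stood for HNF1, and the motif TTTATNG for CDX factors. The motifs were chosen after these windows had been seen, and no marked matches overlap.
Akp3: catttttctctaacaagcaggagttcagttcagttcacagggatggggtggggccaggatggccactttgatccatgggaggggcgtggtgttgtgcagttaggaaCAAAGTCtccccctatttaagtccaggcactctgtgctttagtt
Alpi: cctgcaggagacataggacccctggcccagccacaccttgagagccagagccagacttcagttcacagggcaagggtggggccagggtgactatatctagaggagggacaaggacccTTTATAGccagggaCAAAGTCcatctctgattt
Enpp7: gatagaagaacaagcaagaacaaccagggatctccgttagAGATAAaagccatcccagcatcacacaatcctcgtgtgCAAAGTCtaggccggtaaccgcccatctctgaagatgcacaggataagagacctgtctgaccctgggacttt
Asah2: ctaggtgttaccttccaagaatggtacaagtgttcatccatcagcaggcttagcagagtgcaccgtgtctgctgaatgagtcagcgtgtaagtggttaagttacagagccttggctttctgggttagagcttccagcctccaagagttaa
CAAAGTC began 44 bases before the start of Akp3, 19 before that of Alpi and 72 before that of Enpp7, and was not found in the 250 bases before that of Asah2. It also began 214 bases before 1 of the starts of Alpl, the member that was not above background on any array. Over all 32851 promoter windows of 250 bases, 3.84% held CAAAGTC, 16.6% a GATA match, 6.43% GTTAAT and 9.81% TTTATNG. A match of letters is a description and not a site of binding.

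The arrays had mean signals of 386 to 558 units, and each array had 12447 to 13922 probes with a detection p below 0.05, here called above background. Goblet cell transcripts were present in both segments: Tff3, a trefoil peptide secreted with mucus, had a mean of 12.58 ± 0.07 log2 over the small-intestinal arrays and of 12.27 ± 0.02 over the colon arrays (SD, n = 4). Of 13 tested goblet cell genes, 7 were higher in colon, 0 were lower there and 6 did not pass, with a median of 1.33 log2, opposite in sign to the members. Their summed normalized level was 41064 to 44614 units in small intestine and 48273 to 57572 in colon. Villin, Vil1, a brush border protein shared by gut epithelial cells, stood at 12.03 ± 0.34 and 10.84 ± 0.22. Of 23 tested markers of absorptive enterocytes other than the members, 23 passed detection on every small-intestinal array. Their summed normalized level was 68259 to 100767 units in small intestine and 18500 to 29425 in colon, and 20 were higher in small intestine. Paneth cell genes moved the same way: of 9 tested, 8 favoured small intestine and 1 colon, with sums of 72254 to 84529 against 4731 to 15906 units. Their lysozyme Lyz1 averaged 13.92 ± 0.08 and 9.04 ± 2.57 (adjusted p = 0.00421). In sorted bulk samples, a different share of cells of a type and a different amount of RNA per cell cannot be told apart, and the part of enterocyte or Paneth cell RNA in the results below was not tested. The labels and headers give no slide or scan, so no batch could be tested.

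Akp3, Enpp7 and Asah2 were higher in small intestine. In colon Akp3 was not above background on any array, Enpp7 was so with 1 probe on 1 array, and Asah2 was measured on all 4; Alpl was not above background in either segment. All 5 probes tested, of Akp3, Enpp7 and Asah2, were higher in small intestine at an adjusted p below 0.05 (limma, Benjamini-Hochberg over 13618 probes). Of all probes tested, 21.4% passed, 9.83% with the higher level in small intestine and 11.6% with it in colon. For these 5 probes the lowest small-intestinal array lay above the highest colon array, by 1.84 to 3.54 log2; such a gap was found for 10.8% of all probes tested. Log2 fold changes are given as colon minus small intestine, so a negative value means higher in small intestine. Of all probes tested, 1.26% favoured small intestine by at least 3 log2, and all 5 member probes were among them. The cut of 3 lies just below the smallest member value, -3.35, so their place there is no support. Without background correction Enpp7 probes ILMN_2534526 and ILMN_3075190 and Asah2 fell short of it, at -2.75, -1.51 and -2.88. The median of the 23 tested enterocyte markers was -4.40, so such a difference is not particular to the members. Akp3 and Enpp7 probes ILMN_2534526 and ILMN_3075190 passed the filter on dim probes through the small-intestinal arrays alone, and ILMN_3154252 through those and 1 colon array. A probe that enters in this way had to differ, so the count of 5 is a description and no support.

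**Figure D1:**
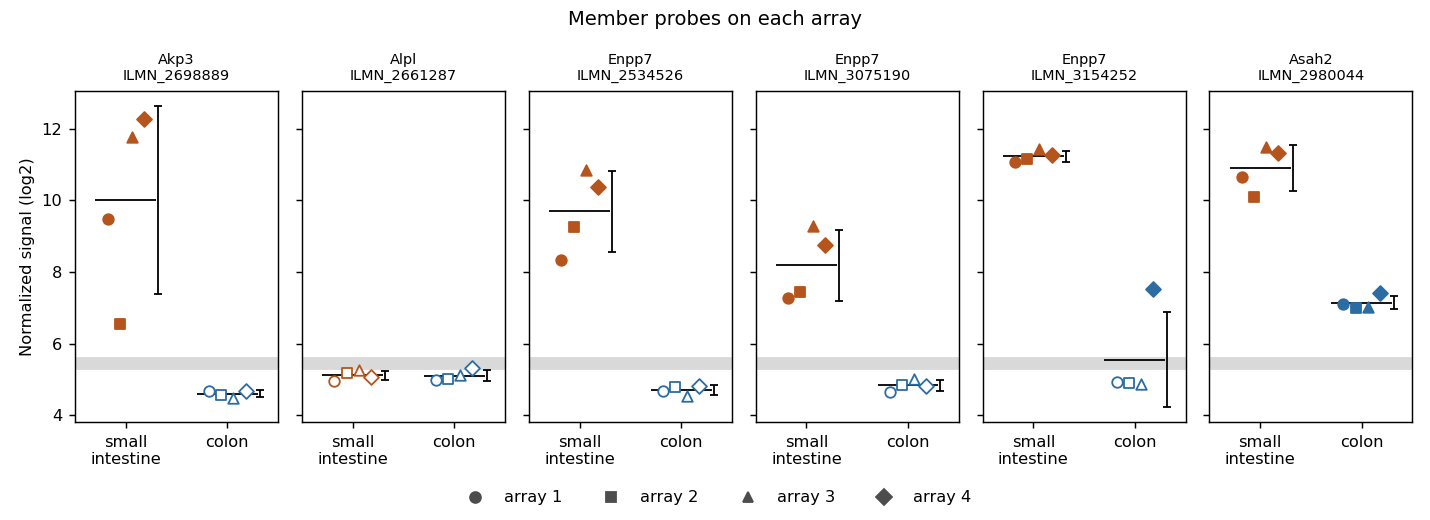
Normalized signal (log2) of the 6 member probes on each array, small intestine in orange and colon in blue, with 1 symbol per array number, filled where the probe was above background. Horizontal lines are means, bars are SD (n = 4), and the grey band spans the lowest values above background on the 8 arrays. Akp3 spreads from 6.54 to 12.28 in small intestine, and colon array 4 stands alone at 7.54 on the third Enpp7 probe.

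Akp3, the duodenal alkaline phosphatase, had deposited signals of 685, 263, 3116 and 6225 units on small-intestinal arrays 1 to 4 and of 135, 136, 133 and 149 units on colon arrays 1 to 4. After normalization these were 9.48, 6.54, 11.76 and 12.28 log2 in small intestine and 4.67, 4.58, 4.50 and 4.69 in colon. Small-intestinal arrays 3 and 4 were high, array 1 was intermediate and array 2 was low, yet all 4 were above background and none of the colon arrays was. As normalized here, the difference was at least 23.0-fold in favour of small intestine (fitted log2 fold change -5.40, SE 0.99, adjusted p = 0.00248). Such bounds set the mean of the higher group against, on each array of the other, the lowest value of any probe above background (5.28 to 5.61 log2). They hold for this normalization only. The fitted fold for Akp3 was 19.4 with an offset of 50 and 9.78 without background correction. The bound was 51.4-fold without small-intestinal array 2, 15.4-fold without array 3 and 13.6-fold without array 4, and the fitted value moved to -6.56 without array 2 and -4.65 without array 4.

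The spread of Akp3 within small intestine was the widest of all probes measured there. Its 4 values spanned 5.74 log2, a 53.5-fold range, which ranked 1 of the 11297 probes above background on all 4 small-intestinal arrays. The median range of those probes was 0.74 log2, and 1.36% of them spanned more than 2 log2. With no scaling between arrays the 4 Akp3 values still spanned a 48.7-fold range.

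Of 7681 genes above background on all 4 small-intestinal arrays, those whose values there lay nearest to Akp3, by the root mean square difference of mean-centred log2 values, were Tmprss15, S100g, Slc30a10, Slc40a1 and Slc46a1 (0.84, 0.93, 1.14, 1.24 and 1.25 log2). Tmprss15, enteropeptidase, which activates trypsinogen in the duodenum, stood at 9.24, 6.09, 9.78 and 10.24. S100g, the calcium-binding calbindin-D9k, stood at 11.35, 8.15, 11.58 and 12.23. Both were lowest on array 2 and highest on array 4, as Akp3 was, an order favoured by their choice for closeness to Akp3.

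Slc40a1, the iron exporter ferroportin, stood at 10.05, 8.70, 10.74 and 11.63 on the same arrays. Slc30a10, a manganese exporter, stood at 7.91, 6.84, 9.17 and 9.90, and Slc46a1, the proton-coupled folate transporter, at 6.49, 6.65, 9.13 and 9.63. In every one of these 5 genes arrays 3 and 4 were the highest, and only in Slc46a1 was array 1 the lowest. The genes were chosen for closeness to Akp3 on these same arrays, so a shared order follows largely from the choice and is no support. These genes did not share the contrast between segments. Tmprss15 (log2 fold change -3.62, adjusted p = 0.00454) and Slc46a1 (-2.96, adjusted p = 0.00789) were higher in small intestine. Each was above background on 1 of 4 colon arrays, so these folds are measured near the floor. S100g (0.76, adjusted p = 0.503), Slc30a10 (1.27, adjusted p = 0.127) and Slc40a1 (1.27, adjusted p = 0.102) did not pass. Slc46a1 lost its call with colon arrays 1 and 4 left out (adjusted p = 0.0858), and Slc30a10 and Slc40a1 passed without small-intestinal array 4 (adjusted p = 0.0271 and 0.0216, both higher in colon). Tmprss15 moved to -4.53 and S100g to -0.13 without small-intestinal array 2.

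**Figure D2:**
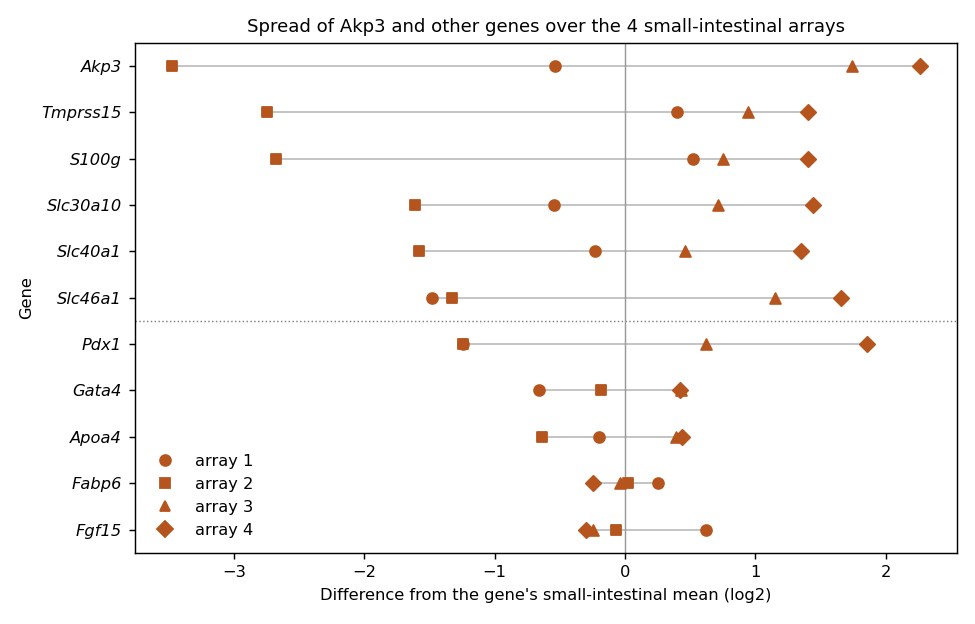
Each row shows the 4 small-intestinal arrays of 1 gene as the difference from that gene's own small-intestinal mean (log2), with 1 symbol per array. Above the dotted line are Akp3 and the 5 nearest genes; below it are 5 genes of the lists for proximal small intestine and ileum. Array 2 is lowest for Akp3, Tmprss15, S100g, Slc30a10 and Slc40a1, the nearest genes having been chosen for closeness on these arrays. Fabp6 and Fgf15 are highest on array 1, but they are 2 of 12 tested ileal genes. Medians of that list were higher on arrays 3 and 4. Pdx1 was not above background on arrays 1 and 2.

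Markers of position along the small intestine are given beside the spread of Akp3. The duodenal and pancreatic homeobox gene Pdx1 was above background on arrays 3 and 4 only, at 4.92, 4.92, 6.78 and 8.02 log2 on arrays 1 to 4. Gata4, a factor of the proximal intestine, stood at 7.24, 7.71, 8.33 and 8.32, and the apolipoprotein Apoa4 at 12.76, 12.32, 13.35 and 13.40. The 2 arrays that were high for Akp3 were also the higher ones for these 3 genes, which are examples picked from a longer list. The hormone genes Gip and Sct, given at the end, were highest on array 2 instead.

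Over the 19 tested genes of the proximal list, the summed normalized level was 38772, 29611, 51601 and 55739 units on arrays 1 to 4. Over the 12 tested ileal genes it was 35761, 28632, 31546 and 28243 units. The ileal bile acid binding protein Fabp6 stood at 14.02, 13.79, 13.73 and 13.53, and the ileal hormone Fgf15 at 7.22, 6.53, 6.35 and 6.30. Both were highest on array 1 and lowest on array 4, but the list was not uniform: its medians were 10.19, 9.91, 10.60 and 10.49 log2, higher on arrays 3 and 4. Medians of the proximal list were 10.37, 9.44, 10.74 and 10.86. That list holds S100g and Slc40a1, which were also chosen above for closeness to Akp3, so the list is not independent of that choice. The absorptive enterocyte list was also higher on arrays 3 and 4, with sums of 77778, 68259, 100767 and 94246 units on arrays 1 to 4. Lct, Apoa4, Fabp1, Slc5a1 and Slc2a5 are on both the proximal and the enterocyte list. Region and enterocyte RNA cannot be told apart here, and the part of either in the spread of Akp3 was not tested.

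Alpl, the tissue-nonspecific phosphatase, was not above background on any of the 8 arrays. Its signals were 154, 175, 162 and 181 units on small-intestinal arrays 1 to 4 and 149, 163, 164 and 178 on colon arrays 1 to 4, with detection p-values of 0.0652 to 0.283 and 0.0789 to 0.213. The probe failed the filter on dim probes and no fold is given. Neutrophils are a known source of Alpl: of 10 neutrophil markers with a probe, 7 were above background on no array, S100a8 among them. The 1 neutrophil marker tested was above background on every array of both segments. Mast cell Cpa3 and stromal Col1a1 were above background on no array, but other markers of their lists were. Of 9 mast cell and basophil markers with a probe, 7 were above background on no array. Of the 2 tested, 1 was higher in small intestine. Of 12 markers of stroma, muscle and endothelium, 6 were above background on no array. Of the 2 tested, 1 was higher in colon. The remaining alkaline phosphatase gene with a probe, Alppl2, averaged 5.89 ± 0.25 on small-intestinal arrays and 5.42 ± 0.51 on colon arrays (adjusted p = 0.246).

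Enpp7, which starts the breakdown of sphingomyelin, was measured by 3 probes, and these gave different pictures within small intestine. Probe ILMN_3154252 had signals of 1964, 2820, 2498 and 3313 units on small-intestinal arrays 1 to 4, or 11.08, 11.15, 11.43 and 11.27 log2 after normalization. Its range of 0.35 log2 was among the narrower ones, rank 9907 of 11297. Probe ILMN_2534526 stood at 8.33, 9.25, 10.84 and 10.38, a 5.70-fold range that ranked 31. Probe ILMN_3075190 stood at 7.28, 7.43, 9.28 and 8.76, a 4.00-fold range that ranked 154. On the latter probes arrays 3 and 4 were well above arrays 1 and 2, whereas ILMN_3154252 was nearly level. The part of the transcript that each probe reads was not analysed here.

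In colon, probes ILMN_2534526 and ILMN_3075190 were not above background on any array, at 4.54 to 4.82 and 4.66 to 5.01 log2. As normalized here, they were at least 18.5-fold and at least 6.48-fold higher in small intestine (fitted log2 fold changes -4.99, SE 0.45, adjusted p = 1.76e-05, and -3.35, SE 0.40, adjusted p = 0.000143). Their fitted folds were 14.5 and 5.28 with an offset of 50, and 6.73 and 2.86 without background correction. ILMN_3154252 stood at 4.92, 4.89, 4.86 and 7.54 on colon arrays 1 to 4 and was above background on array 4 only. Its log2 fold change was -5.68 (SE 0.52, adjusted p = 1.89e-05), or -6.34 without colon array 4. The other 3 colon arrays were below background, so both folds are measured near the floor and are not bounds.

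On colon array 4, where ILMN_3154252 stood out, the other Enpp7 probes stood at 4.82 log2 each. Medians of the enterocyte list were 8.37, 7.16, 6.57 and 8.77 log2 on colon arrays 1 to 4, and those of the Paneth cell list 10.30, 8.33, 6.55 and 10.92. Array 4 was the highest for both lists, and its part in the Enpp7 value was not tested.

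The small-intestinal pattern of ILMN_2534526 lay nearest to those of Agap3, Cux2, Src, H2-DMa and Vmn1r197 (root mean square difference 0.09 to 0.22 log2). That of ILMN_3075190 lay nearest to Zfp575, Krtap5-1, Zmiz1, U2af2 and Dgat2 (0.08 to 0.16 log2). Neither set of 5 nearest genes shared a member with the other or with that of Akp3. The measure depends on the width of the spread, which was 2.51 and 2.00 log2 for these probes and 5.74 for Akp3. The lack of shared genes is therefore a description only.

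Asah2, the ceramidase that acts on the product of Enpp7, was the only member above background on all arrays of both segments. Its signals were 1476, 1511, 2583 and 3442 units on small-intestinal arrays 1 to 4 and 231, 277, 226 and 312 units on colon arrays 1 to 4. Normalized values were 10.65, 10.10, 11.49 and 11.33 in small intestine and 7.11, 7.01, 7.03 and 7.41 in colon. The segments did not overlap, and Asah2 was 13.5-fold higher in small intestine (log2 fold change -3.75, SE 0.29, adjusted p = 6.81e-06). Arrays 3 and 4 were again the highest in small intestine, with a 2.61-fold range (rank 1160 of 11297).

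Over all 8 arrays, the genes most like each member by Pearson r were Cyp2c29, Cyp2u1 and Pxdc1 for Akp3 (0.993, 0.989 and 0.988) and 2010106E10Rik, Cyp2b23 and Dnase1 for Asah2 (all 0.997). For Enpp7 they were Slc7a8, Mme and Vnn1 with ILMN_2534526 (0.996, 0.995 and 0.995), Ap1g2, Slc52a3 and Rdh9 with ILMN_3075190 (0.994, 0.993 and 0.991) and Rbp2, Bst1 and Sphk1 with ILMN_3154252 (0.997, 0.995 and 0.994). The arrays fall into 2 segments, so these values mostly describe the step between segments and are given with no test.

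Sphk1, which phosphorylates the sphingosine that ceramidases release, stood at 8.80, 8.65, 8.28 and 8.46 on the small-intestinal arrays and 4.48, 4.49, 4.55 and 5.95 on the colon arrays. It was above background on colon array 4 only and was higher in small intestine (log2 fold change -3.68, SE 0.32, adjusted p = 1.36e-05). This fold is measured near the floor and was -1.79 log2 without background correction. Of 11 tested genes of sphingosine 1-phosphate making, breakdown and sensing, 3 were higher in small intestine, 0 in colon, and 8 did not pass, with a median of -0.14 log2. Over all 9080 genes tested, 22.4% passed; 9.3% favoured small intestine and 13.1% colon, and the median was 0.07. The related kinase Sphk2 stood at 11.52 ± 0.09 and 11.38 ± 0.13 (adjusted p = 0.603). Plpp1, a lipid phosphate phosphatase, was lower in colon, a log2 fold change of -1.04 (SE 0.25, adjusted p = 0.0116) and lost its call with colon arrays 1 and 4 left out (adjusted p = 0.136).

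Sphingolipid breakdown enzymes other than the members leaned towards colon. Of 17 tested, 7 were higher in colon, 2 were lower there and 8 did not pass, with a median of 0.37 log2. Acer1, an alkaline ceramidase, averaged 9.57 ± 0.32 on small-intestinal arrays and 11.60 ± 0.16 on colon arrays, a log2 fold change of 2.03 (SE 0.21, adjusted p = 4.04e-05). Smpd1, the acid sphingomyelinase of lysosomes, was also higher in colon (1.68, SE 0.29, adjusted p = 0.00151). These enzymes act on the same substrates as Asah2 and Enpp7 and differed between the segments in the opposite direction.

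The exceptions were Smpdl3b and Smpd2. Smpdl3b, a membrane-anchored relative of the acid sphingomyelinase, stood at 11.90, 10.94, 11.63 and 11.61 in small intestine and 8.67, 7.87, 8.55 and 9.29 in colon, with no overlap (log2 fold change -2.92, SE 0.31, adjusted p = 5.39e-05). Smpd2, a neutral sphingomyelinase, was lower in colon by a smaller step, at 7.28 ± 0.36 against 8.28 ± 0.12 (adjusted p = 0.00608).

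Most genes of sphingolipid synthesis did not pass the test: of 19 tested genes 3 were higher in colon, 3 were lower there and 13 did not pass, with a median of -0.27 log2. Fa2h, the fatty acid 2-hydroxylase that makes hydroxylated ceramides, stood at 6.49, 5.09, 5.03 and 5.32 in small intestine and 10.82, 10.34, 10.39 and 10.79 in colon. It was above background on 1 small-intestinal array and rose by 5.10 (SE 0.32, adjusted p = 1.5e-06). This fold is measured near the floor and was 3.20 log2 without background correction. The ceramide synthase gene Cers4 was also higher in colon (0.92, adjusted p = 0.0396), a call that 9 of 17 alternatives ended (range of adjusted p 0.0224 to 0.284). It ended with no scaling between arrays and without small-intestinal array 3 or 4 or colon array 3 or 4, for example. Ormdl3, a regulator of the first enzyme of the pathway, was lower in colon (-1.46, SE 0.30, adjusted p = 0.00511), as was Samd8, a ceramide phosphoethanolamine synthase (-1.24, SE 0.25, adjusted p = 0.00398).

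**Figure D3:**
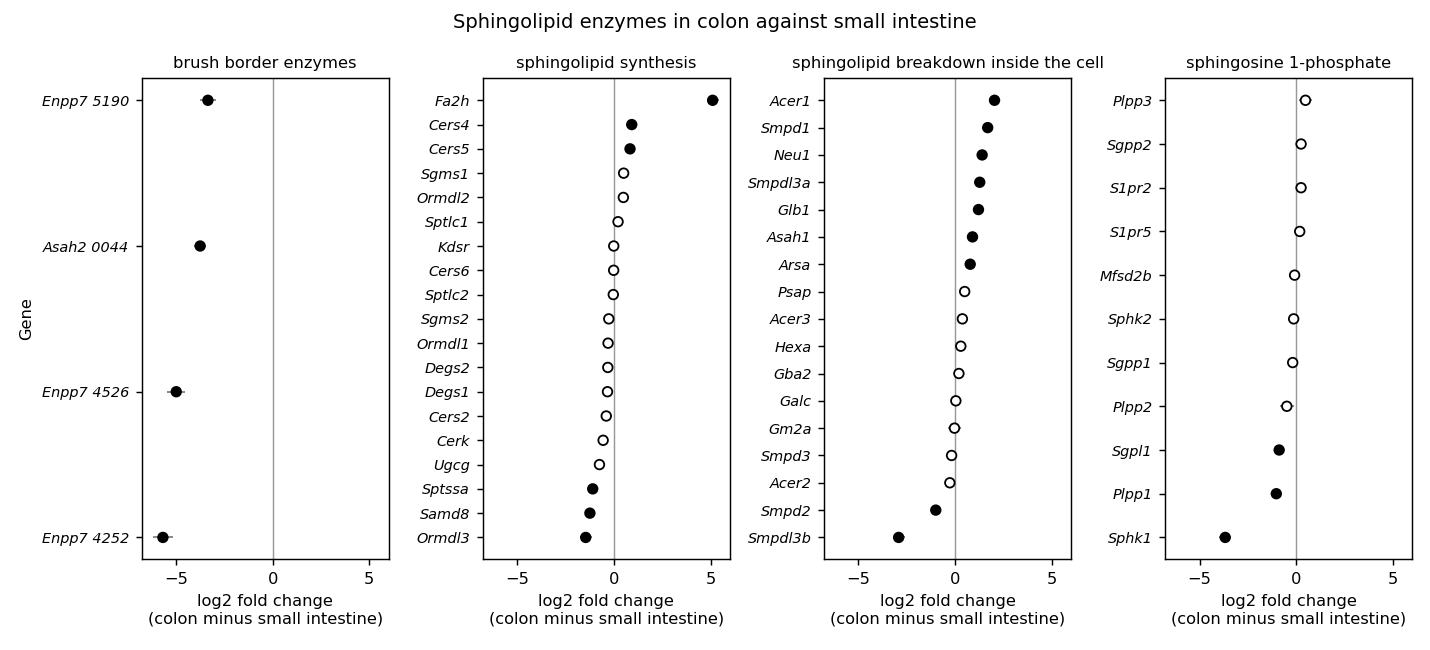
Fitted log2 fold change, colon minus small intestine, for the Enpp7 and Asah2 probes (with the last 4 digits of the probe) and for each tested gene of 3 sphingolipid lists, with bars of 1 SE; filled points have an adjusted p below 0.05. The 4 brush border probes lie between -5.68 and -3.35, Sphk1 lies at -3.68, and Acer1 (2.03) and Fa2h (5.10) lie on the colon side. The values of the Enpp7 probes, Sphk1 and Fa2h are measured near the floor in the lower segment.

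Nucleotides are further substrates of alkaline phosphatases and of the Enpp family. Of 14 tested genes of extracellular nucleotide and adenosine handling, 5 were higher in small intestine, 3 in colon and 6 did not pass, with a median of 0.02 log2. Slc28a1, a concentrative nucleoside transporter, stood at 10.74, 9.94, 10.92 and 10.83 in small intestine and 5.22, 4.68, 4.72 and 7.82 in colon, a log2 fold change of -4.99 (SE 0.60, adjusted p = 0.000143). Ada, adenosine deaminase, averaged 12.01 ± 0.92 in small intestine against 8.67 ± 1.60, a log2 fold change of -3.35 (SE 0.71, adjusted p = 0.00604). Colon array 4 was the highest colon array for both, and without it their fitted values were -5.73 and -4.11. Slc28a1 was not above background on colon arrays 1 to 3, so both of its folds are measured near the floor and are not bounds.

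P2ry6, a receptor for uridine diphosphate, was higher in colon (1.27, SE 0.18, adjusted p = 0.000464). Nt5e, the ectonucleotidase CD73, was higher in colon at 1.22 (SE 0.39, adjusted p = 0.0480), a call that 11 of 17 alternatives ended (range of adjusted p 0.0247 to 0.153). It ended without small-intestinal array 3 or 4, or any 1 colon array. Of the other Enpp genes with a probe, Enpp5 rose in colon from 6.98 ± 0.26 to 8.81 ± 0.25 (log2 fold change 1.83, SE 0.21, adjusted p = 9.42e-05). Enpp6 was above background on no array and Enpp4 on 2 colon arrays only, and neither was tested.

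Phosphate is released at the brush border, and genes of phosphate transport differed in direction. Slc34a2, the sodium phosphate cotransporter of the apical membrane, was lower in colon (-1.35, SE 0.29, adjusted p = 0.00652), a call lost with colon arrays 1 and 4 left out (adjusted p = 0.0567). Slc20a1, a widely expressed phosphate carrier, rose in colon by 1.91 (SE 0.21, adjusted p = 6.29e-05), and the phosphate exporter Xpr1 by 1.07 (SE 0.23, adjusted p = 0.00603). Xpr1 lost its call with no scaling between arrays (adjusted p = 0.114). Of 4 tested genes of this list, 2 favoured colon, the exporter Xpr1 among them, and 1 small intestine.

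Lipopolysaccharide is a bacterial substrate of intestinal alkaline phosphatase. Of 5 genes that recognise or break it down, 3 were tested, and 2 of these, Tlr4 and Cd14, were higher in colon. Tlr4, its receptor, stood at 7.08, 7.26, 8.00 and 7.69 on colon arrays 1 to 4 and was not above background on any small-intestinal array. As normalized here, Tlr4 was higher in colon by at least 4.32-fold (adjusted p = 7.69e-06). The fitted fold for Tlr4 was 3.60 with an offset of 50 and 2.16 without background correction. Cd14, its co-receptor, was higher in colon (1.76, SE 0.22, adjusted p = 0.000198), with 1 small-intestinal array above background. Its fold is measured near the floor and was 0.62 log2 without background correction. Ly96 did not pass (0.74, adjusted p = 0.0513), and Lbp and Aoah were above background on no array. CD14 and TLR4 are also known from myeloid cells. Ptprc, which encodes the CD45 excluded by the sort, lay above background on each of the 8 arrays and was higher in small intestine: the mean there was 7.24 ± 0.41 log2, and in colon 6.25 ± 0.38 (adjusted p = 0.0196). Its call was lost without colon array 2 (adjusted p = 0.0525) and with colon arrays 1 and 4 left out (adjusted p = 0.0581). Cd24a, which encodes the other excluded surface protein, was above background on all 8 arrays too, at 9.62 ± 0.12 in small intestine and 10.30 ± 0.37 in colon (adjusted p = 0.0458), a call that 11 of 17 alternatives ended (adjusted p 0.0210 to 0.294), among them no scaling and the omission of small-intestinal array 2, 3 or 4 or colon array 2, 3 or 4. Krt18, the selected keratin, averaged 10.93 ± 0.28 and 11.26 ± 0.11 (adjusted p = 0.272). Fut2, a fucosyltransferase that makes the sugar bound by UEA-I, was above background on 1 small-intestinal array and all 4 colon arrays, at 4.99 ± 0.32 and 10.08 ± 0.24 (adjusted p = 1.08e-07).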

How the data were processed

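Sorted goblet cells of 4 small-intestinal and 4 colon samples were measured on Illumina arrays. The authors deposited a signal intensity per probe and array, neither background-subtracted nor scaled, per the file headers and the values, and a detection p-value beside each signal, per the file headers. A second deposited table holds the authors' processed intensity, on a linear scale with negative values. Each of its columns was a straight line of that array's signals, with 141 to 163 units subtracted and scaling to a mean of 293, and column medians of 22.5 to 32.6. Neither the software nor the way the subtraction was set is known here. One corrupted signal, on colon array 3 and not of a member, was restored from that line.

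Background was corrected with normexp from the detection p-values (offset 16), followed by quantile normalization and log2 (neqc, limma 3.58.1, R 4.3.3). Probes with a detection p below 0.05 on at least 4 of 8 arrays (13618) were tested, colon against small intestine, with lmFit and eBayes, two-sided, Benjamini-Hochberg adjustment at 0.05. A gene outside the members was represented by its brightest tested probe. Names came from the platform annotation, updated through a RefSeq table: 23978 probes had 1 symbol, 0 several and 1719 none. The model was tested on simulated data, in which 38 of 100 2-fold changes and 93 of 100 4-fold changes were recovered. Of 139 calls, 8 were false. The simulated spread of a probe was capped at a value below that of Akp3. A gene that did not pass may therefore still differ. Levels are compared between arrays for a probe, not between probes. The number of arrays limits the precision.

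The members, lists, tests and alternatives were chosen with earlier results of these data known. Beside the members, the named genes were the 2 largest called rises and falls of each pathway list, the 3 genes most correlated with each member over 8 arrays, the 5 nearest in small intestine where a member spanned over 2 log2 there, region markers and defining markers. Pdx1, Alppl2, Sphk2, Enpp4, Enpp6, Ly96, Lbp and Aoah fall outside that rule and were named after their values were seen. Alternatives were no background correction, an offset of 50, no scaling, the authors' values floored at 16, no filter, detection on all 8 arrays, an intensity trend in the variance, the replicate number as a block, each array left out, and colon arrays 1 and 4 left out. Same-numbered arrays of the segments correlated in their deviations at 0.07, 0.25, -0.18 and 0.05, so the numbers were not taken as pairs. Tables were read and drawn with matplotlib 3.10.9 and pandas 2.3.3 in Python 3.11.15.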

Additional observations from a re-analysis of the deposited data

Results flagged for a closer look

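The third Enpp7 probe, ILMN_3154252, stood at 7.54 log2 on colon array 4, far from the other colon arrays (4.86 to 4.92). The gap to the nearest of them took up 0.978 of the whole range of the group, past the limit set by Dixon's test for 4 arrays. It was 1 of 12 groups of 4 arrays checked over the 6 member probes, and chance flags about 1 in 20 groups of normally spread values. Colon arrays 1 to 3 were not above background on this probe, and values near the floor lie close together. Neither the limit nor that rate can therefore be relied on for this group.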

How the results depend on the processing

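Of the 5 member probes tested, all kept their direction and an adjusted p below 0.05 under each of the 16 alternatives run on them (17 for Asah2). The log2 fold change ran from -6.56 to -3.29 for Akp3 (adjusted p from 5.13e-05 to 0.0304), from -6.35 to -3.75 for Enpp7 ILMN_3154252, from -5.59 to -2.75 for ILMN_2534526, from -4.04 to -1.51 for ILMN_3075190 and from -4.02 to -2.88 for Asah2. The values nearest 0 came without background correction. Akp3 and Enpp7 could not be tested with detection required on all 8 arrays, since no Enpp7 or Akp3 probe was above background on more than 1 colon array. Calls over all probes numbered 2919, against 1795 without scaling between arrays and 1748 with colon arrays 1 and 4 left out. Without scaling, colon was the higher segment in 744 calls and small intestine in 1051, which put colon at 41.4% of calls where it had 54.1%, and the median fold change of all probes moved from 0.02 to -0.19. With the replicate block, 2627 probes were called and Akp3 stayed at -5.40 (adjusted p = 0.00432). That block changed no member's call. Of small-intestinal arrays 1 to 4, only array 2 correlated best with its own number in colon. With each array left out in turn, S100g ran from -0.13 to 1.23, and it reversed without small-intestinal array 2; the cause was not tested. Of 35 genes checked outside the members (pathway genes, gate and cell markers, the 5 nearest to Akp3, Agap3 and Zfp575), 29 were called; 19 kept their call under every alternative run, and 10 lost it under at least 1. The other genes named for likeness or region were not checked, Ada and Sphk1 apart. The small-intestinal SD of Enpp7 ILMN_3154252 moved from 0.16 to 0.33 without scaling. Detection at p below 0.01 in place of 0.05 left the members' count of arrays above background at 25.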

Other observations

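Markers of hormone-secreting enteroendocrine cells had a summed normalized level over 11 tested genes of 7349, 14302, 6849 and 7012 units on small-intestinal arrays 1 to 4. The medians of the same list were 8.67, 9.03, 8.35 and 8.49 log2, a smaller difference. The sum rests mostly on 2 bright genes, the hormones Gip (10.36, 12.03, 9.45 and 9.58) and Sct (11.62, 12.26, 11.48 and 11.61). The summed level of the Paneth cell list was 84529, 75713, 73152 and 72254 units on the same arrays, and that of the goblet cell list 44614, 41531, 41064 and 42684 units. The part of these cells in the values of the brush border enzymes was not tested.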
